A study of Mus musculus with 2 samples.

Results

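AP-1 is a family of dimeric transcription factors built from FOS, JUN, BATF, ATF3 and small MAF proteins, which share a basic leucine zipper and bind DNA as pairs. Fos, Fosb, Jun, Junb, Atf3 and Maff belong to the immediate early genes, which are transcribed within minutes of a stimulus without new protein synthesis. H3K4me3, trimethylation of lysine 4 on histone H3, is a mark of transcript starts that are active or held ready for transcription, and in group 2 innate lymphoid cells (ILC2s) AP-1 factors act downstream of alarmin and growth factor signals. The H3K4me3 peaks at 10 AP-1 genes (Fos, Fosb, Fosl1, Fosl2, Jun, Junb, Jund, Batf, Atf3 and Maff) are described here, out of 22028 protein-coding genes in the GENCODE vM21 annotation of GRCm38. The genes were picked by symbol, and every peak that overlapped the gene body or lay within 1000 bp of one of its transcript starts was taken.

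The mark was profiled by CATCH-seq, in which small numbers of cells are taken through native ChIP with MNase-cut chromatin and carrier DNA, in ILC2s sorted from the lungs of 8-week-old C57BL/6J offspring. Mothers of the first group (F1PBS) were injected with PBS in 25 µL of alum and received PBS intranasally from gestation day 4 to 17. Mothers of the second group (F1OVA), the asthmatic mothers, were injected with 100 µg of ovalbumin (OVA) in the same adjuvant. They received intranasal doses of 500 µg of OVA, repeated over the same days. The offspring of both groups had no treatment of their own in the labels. Each group is 1 library of about 3000 cells, so no value has a replicate and none of the differences between groups could be tested. The group, the library and its preparation cannot be told apart. The lungs of both groups were digested with enzymes before sorting, and how many offspring gave cells to a library is not given in the sources used here. Among marker genes fixed for 8 cell types, 9 of 12 ILC2 markers had a start peak in F1PBS, Gata3, Rora and Il1rl1 included, and 6 of 12 in F1OVA, where Gata3, Il7r and Il5 had none. Klrg1, Icos and Il13 had no start peak in either list. Of all coding genes 50.9% had one in F1PBS and 41.9% in F1OVA, the latter near the 6 of 12. Of the markers of other cells, Lck (1 of 6 for T cells), Epcam (1 of 4 epithelial) and Kdr (1 of 4 endothelial) had one in F1PBS. None had one in F1OVA.

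The 2 lists differ as a whole, and each value of an AP-1 gene is therefore given beside the same value over all coding genes of its list. Of the coding genes, 50.9% had a peak within 1000 bp of a start (a start peak) in F1PBS and 41.9% in F1OVA. Peaks no more than 1000 bp apart were joined into a domain, and its span is called the joined width. The median joined width of coding genes with a start peak was 663 bp in F1PBS and 409 bp in F1OVA. The strongest start peak of a gene is the one with the highest −log10 q, the authors' measure of how far a peak stands above the local background, and this measure is not scaled between the lists. Its median over these genes was 13.7 in F1PBS and 7.99 in F1OVA. Rank is the percentile of that peak, either among all peaks of the list (list percentile) or among the strongest start peaks of coding genes (gene percentile).

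All 10 AP-1 genes had a start peak in F1PBS and 8 had one in F1OVA, where Jun and Fosl1 had none. The joined width had a median of 899.5 bp in F1PBS (range 401 to 1477) and 541.5 bp in F1OVA (range 156 to 1389), above the coding medians, but the peaks in the domains ranked low. In F1OVA this width rests on joining: without it the median was 287.5 bp, below the 351 bp of coding genes, and Fosl2, Atf3 and Maff were narrow there even when joined, at width percentiles from 1.5 to 23.9. The median gene percentile of −log10 q was 26.3 in F1PBS and 17.0 in F1OVA, where the middle gene of the list stands at 50 by definition. In F1PBS every AP-1 gene ranked below the middle, from Jun at 7.62 to Jund at 44.3. In F1OVA Batf alone ranked above it, at 57.3.

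The peaks lay in the transcribed part of the genes, on the downstream side of the start, with 1 exception at Jun. Distances are given from the start of the lowest-numbered protein-coding transcript, called the reference start. This choice was made after values were seen. No peak covered this base at any of the 10 genes in F1PBS or any of the 8 in F1OVA, whereas 41.6% of coding genes with a start peak had it covered in F1PBS and 18.4% in F1OVA. With RefSeq starts in its place, peaks covered a start of Fosl2 and Batf among 9 genes in F1PBS and of Batf among 8 in F1OVA, beside 47.4% and 21.8% of coding genes. The strongest summit lay downstream of it at 10 of 10 and 8 of 8 AP-1 genes, beside 77.2% and 76.9% of coding genes. The median distance from the reference start to that summit was 727.5 bp in F1PBS and 485 bp in F1OVA, against 184 and 186.5 bp over coding genes. At 5 of the 10 genes in F1PBS (Fos, Fosb, Fosl1, Atf3 and Maff) the strongest start peak did cover the start of another annotated transcript, and in F1OVA this held for 1 of 8, Fosb. Over coding genes with a start peak, the strongest one covered an annotated start of its gene at 67.7% in F1PBS and 44.6% in F1OVA.

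**Figure D1:**
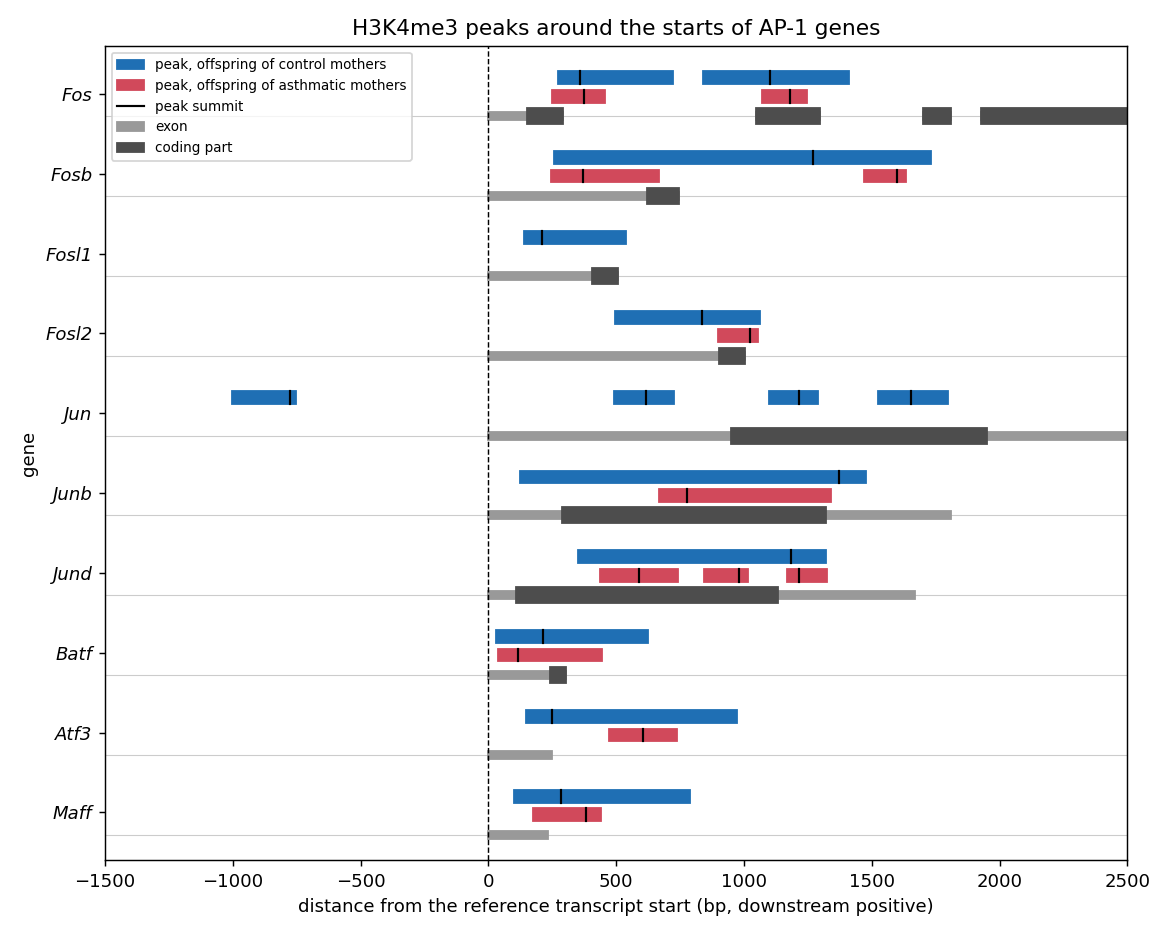
Peaks of both lists at the 10 AP-1 genes, by distance in bp from the reference start (dashed line), with transcription running to the right and the exons and coding parts of the reference transcript in grey. Blue bars are peaks of offspring of control mothers, red bars those of offspring of asthmatic mothers, and black ticks are summits; no bar reaches the dashed line, and only Jun has a peak to its left. The distal peaks of Batf and Maff lie beyond the right edge.

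Fos encodes the founding member of the FOS family, which binds DNA only as a heterodimer with a JUN protein. Its gene (ENSMUSG00000021250.13, chr12:85473890-85477273, plus strand, 4 exons) carried 2 peaks in F1PBS, at chr12:85474163-85474612 and chr12:85474729-85475299. The first lay almost wholly in intron 1, with 432 of 450 bp intronic, and the second held the 252 bp of coding exon 2 with 319 bp of flanking intron. F1OVA had 2 peaks in the same places, at chr12:85474138-85474346 and chr12:85474960-85475136, and the latter lay wholly within coding sequence. The joined width was 1137 bp in F1PBS and 999 bp in F1OVA, percentiles of 86.8 and 92.7 among coding genes. The F1OVA domain is 2 short pieces with a gap between them, and its peaks covered 386 bp, a ratio of covered bases to F1PBS of 0.378. The −log10 q of the strongest start peak was 11.3 in F1PBS and 5.59 in F1OVA, so Fos was among the widest domains and at gene percentiles of only 32.5 and 18.2.

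Fosb encodes a FOS paralogue that is also the source of the truncated deltaFosB protein. Its gene (ENSMUSG00000003545.3, chr7:19302696-19310051, minus strand) had the widest AP-1 domain in both lists, a single peak of 1477 bp in F1PBS at chr7:19308320-19309796. The peak ran from 255 to 1731 bp downstream of the reference start and held 365 bp of 5′ untranslated sequence, 126 bp of coding sequence and 986 bp of intron. In F1OVA the same span was held at its ends by a peak of 425 bp over the first exon (chr7:19309383-19309807) and one of 162 bp in intron 1 (chr7:19308419-19308580). Together these gave a joined width of 1389 bp, of which 587 bp was covered by peaks. The width percentiles were 95.6 and 98.4, while the −log10 q of 12.0 and 5.20 gave gene percentiles of 37.7 and 16.3. The coding genes whose 2 joined widths were nearest to those of Fosb were Kctd9 and Cdca2, both at 1485 and 1385 bp, and Cnot6l at 1463 and 1396 bp.

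The FOS-like genes differed from Fos and Fosb. Fosl1 encodes FRA-1, a FOS-like protein without the transactivation domain of FOS, and its gene (ENSMUSG00000024912.6, chr19:5447547-5455946, plus strand) had 1 peak in F1PBS, at chr19:5447686-5448086. That peak was 401 bp wide, the narrowest AP-1 domain in F1PBS, at a width percentile of 18.3, and its −log10 q was 9.81. In F1OVA no peak was listed at Fosl1, and the nearest lay 9441 bp from the reference start.

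Fosl2 encodes FRA-2. At its gene (ENSMUSG00000029135.10, chr5:32135801-32157842, plus strand) the F1PBS list held 1 peak of 568 bp over the coding end of the first exon, at chr5:32136296-32136863. The F1OVA list held 1 of 156 bp inside it, at chr5:32136701-32136856. The latter has the smallest width that the F1OVA list contains, at a percentile of 1.5, and the ratio of widths, 0.275, was the lowest among the 8 AP-1 genes with a start peak in both lists. RefSeq places the start of Fosl2 671 bp downstream of the reference start used here, and that position lies within the F1PBS peak.

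Jun encodes the founding JUN protein, which can pair with itself or with FOS and ATF family members. Its single-exon gene (ENSMUSG00000052684.4, chr4:95049034-95052222, minus strand) carried 4 separate peaks in F1PBS, more than any other AP-1 gene. Of these, 2 lay in the coding sequence (chr4:95050423-95050699 and chr4:95050932-95051125), 1 in the 5′ untranslated region (chr4:95051495-95051730) and 1 upstream of the gene (chr4:95052973-95053225). The upstream peak, from −1003 to −751 bp of the start, was the only AP-1 gene peak outside a gene body. Transcripts of the antisense gene Junos start within this region, and the mark carries no strand, so the 2 genes cannot be told apart in these peaks. The joined width of the domain at the start was 1308 bp, a percentile of 92.7, but it was made of 3 peaks of 194 to 277 bp that covered 707 bp. The upstream peak lay outside this domain. The strongest start peak had a −log10 q of 6.22, the lowest of the 10 genes, at a gene percentile of 7.62.

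In F1OVA no peak was listed at Jun, and the nearest peak to its start was 73197 bp away. The absence of a start peak in F1OVA was common among coding genes whose F1PBS peak was as weak. Over all strengths, 19.1% of coding genes with a start peak in F1PBS had none in F1OVA, beside 2 of the 10 AP-1 genes. Of 403 coding genes with a −log10 q within 0.5 of that of Jun in F1PBS, 57.1% had none in F1OVA (exact Clopper-Pearson 95% interval 52.1 to 62.0%, counting error only). Around the strength of Fosl1 the share was 28.2% (24.8 to 31.8%). Around Fosl2, Atf3 and Maff it was 54.3%, 48.4% and 43.3%, and these 3 genes kept a start peak in F1OVA. A gene without a listed peak may still carry the mark below the listing limit, which was a −log10 q of 2.02 in F1PBS and 2.01 in F1OVA.

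Junb and Jund, the other JUN genes, had broad F1PBS peaks that covered most of their coding sequence. JUNB is an early-induced JUN protein, and JUND is the member that many cells make without a stimulus. At Junb (ENSMUSG00000052837.6, chr8:84974484-84978718, minus strand) the F1PBS peak at chr8:84977240-84978594 spanned 1355 bp, of which 1032 bp was coding, 165 bp 5′ untranslated and 158 bp 3′ untranslated sequence. The F1OVA peak at chr8:84977378-84978051 was 674 bp wide and lay wholly inside it, a ratio of 0.497. The near edge moved from 124 bp downstream of the reference start in F1PBS to 667 bp in F1OVA.

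At Jund (ENSMUSG00000071076.6, chr8:70698949-70700616, plus strand) the F1PBS peak at chr8:70699299-70700270 was 972 bp wide with 782 bp of coding sequence. In F1OVA the same stretch held 3 peaks, at chr8:70699385-70699692, chr8:70699794-70699965 and chr8:70700118-70700273. They joined to 889 bp, but covered 636 bp, a ratio of covered bases of 0.654. Peaks covered 58.3% of the Jund gene body in F1PBS and 38.1% in F1OVA, and 32.0% and 15.9% of that of Junb, the other genes being lower in F1PBS. The antisense gene Gm11175 starts in the Jund region, and RefSeq places the start of Jund upstream, at −1210 bp from the reference start used here.

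Batf, Atf3 and Maff encode AP-1 proteins that lack the activation domain of FOS and can repress as well as activate. Batf, needed for the differentiation of several T helper cell lineages, ranked highest among them (ENSMUSG00000034266.6, chr12:85686669-85709087, plus strand). Its start peak had a −log10 q of 12.5 in F1PBS (chr12:85686700-85687293, 594 bp) and 8.65 in F1OVA (chr12:85686706-85687114, 409 bp). It was the AP-1 gene whose peaks came closest to the reference start, 31 bp downstream in F1PBS and 37 bp in F1OVA. It was also the only one whose gene percentile was higher in F1OVA, by 16.2 points. The other 7 genes with a start peak in both lists had a lower one in F1OVA, beside 58.2% of coding genes, and the median shift over the 8 was −10.8 points, beside −4.97 over all coding genes with a start peak in both.

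Atf3, a stress-induced gene, has annotated starts far apart (ENSMUSG00000026628.13, chr1:191170296-191218039, minus strand). The peaks lay at the proximal one, at chr1:191182368-191183194 in F1PBS (827 bp) and at chr1:191182602-191182867 in F1OVA (266 bp), mostly or wholly in the intron after the first exon. No peak was listed at the 5′ end of the gene in either list. Its −log10 q was 7.85 in F1PBS and 4.71 in F1OVA. Maff encodes a small MAF protein (ENSMUSG00000042622.14, chr15:79346621-79359076, plus strand) and had start peaks of 691 bp at chr15:79347619-79348309 in F1PBS and 267 bp at chr15:79347696-79347962 in F1OVA. Its −log10 q was 8.28 in F1PBS and 3.47 in F1OVA, where a gene percentile of 1.49 made it the lowest-ranked AP-1 gene.

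A peak in the gene body away from all starts was found at 3 of the 10 genes in F1PBS (Jun, Batf and Maff) and at 2 in F1OVA (Fosb and Jund), beside 15.2% and 17.8% of coding genes. Those of Jun, Fosb and Jund lay 1020 to 1523 bp from a start, just past the 1000 bp limit, and within the joined start domain. Only the Batf and Maff ones, both in F1PBS, lay apart from it, 8913 and 8974 bp from a start. The Maff one (chr15:79357376-79357685) lay in the last exon, with 265 of 310 bp coding. The Batf one (chr12:85698205-85698573) was intronic and had a −log10 q of 9.76. The bases around this summit also occur elsewhere in the genome. All 369 bp of the peak fall in a stretch of 419 bases (chr12:85698166-85698584) that is repeated exactly, on the minus strand, in the intron of Zfp36l2 at chr17:84187225-84187643. Reads from one stretch cannot be told apart from reads of the other. No peak was listed over the Zfp36l2 copy of the 75 bases around the summit. The nearest lay 224 bp from these bases in F1PBS and 1372 bp in F1OVA. Whether that F1PBS peak reached into the rest of the 419 copied bases was not determined. For every other AP-1 gene peak the 75 bases around the summit had no second copy on the assembled chromosomes.

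Between the lists, the AP-1 domains were narrower in F1OVA at 8 of 8 genes with a start peak in both, as were those of 92.2% of coding genes. The ratio of joined widths, F1OVA over F1PBS, had a median of 0.593 over the 8 genes and 0.664 over all coding genes. This order depends on the settings. Within 500 bp of a start, 6 AP-1 genes had a start peak in both lists and their median was 0.784 beside 0.665, and with peaks of −log10 q of at least 5 alone it was 0.879 over 5 genes beside 0.657. At 4 of the 8 genes (Fosl2, Junb, Atf3 and Maff) the F1PBS domain was at least 1.5-fold wider, beside 50.5% of coding genes, and at none was the F1OVA domain at least 1.5-fold wider, beside 1.17%. The ratio was closest to 1 where the F1OVA domain was made of separate pieces, at Fosb (0.940), Jund (0.915) and Fos (0.879). It was lowest where F1OVA had a single short peak, at Maff (0.386), Atf3 (0.322) and Fosl2 (0.275). Batf at 0.689 and Junb at 0.497 lay between them. All 12 F1OVA peaks of AP-1 genes overlapped an F1PBS peak, while 9 of 16 F1PBS peaks overlapped an F1OVA peak. Over all peaks taken at coding genes by the same rule, 73.6% of those of F1OVA and 71.0% of those of F1PBS overlapped a peak of the other list. With an overlap of at least 50% of both peaks, 1 AP-1 gene peak of each list was shared, beside 50.9% of coding gene peaks in F1OVA and 52.0% in F1PBS. The 7 unmatched F1PBS peaks were the 4 of Jun, the 1 of Fosl1 and the distal peaks of Batf and Maff.

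**Figure D2:**
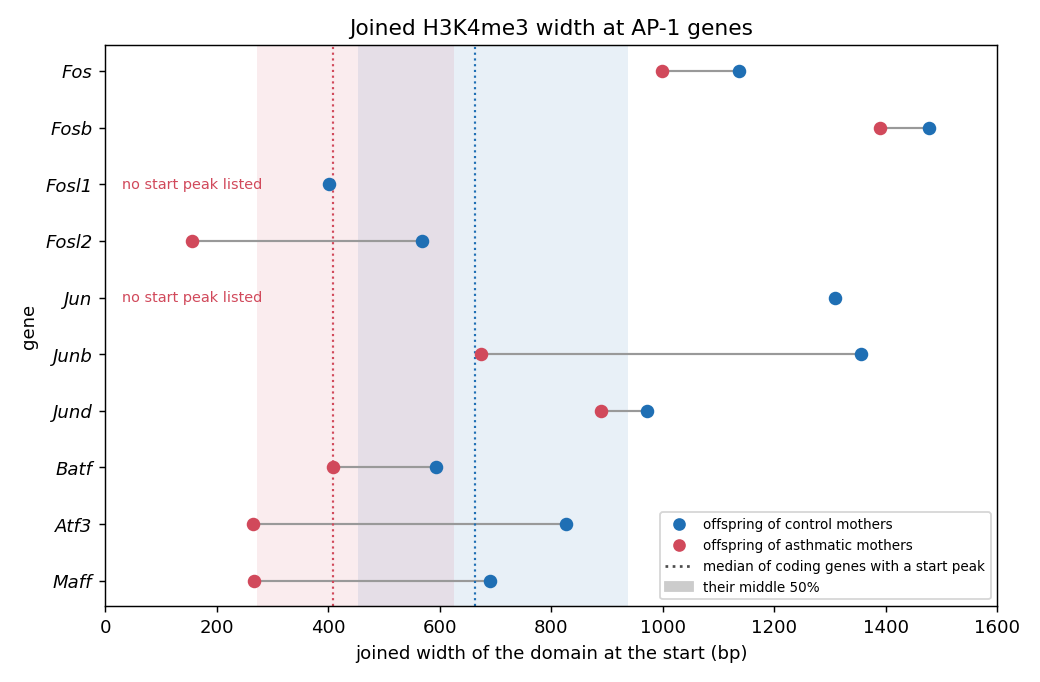
Joined width in bp of the domain at the start of each AP-1 gene, as 1 blue point for offspring of control mothers and 1 red point for offspring of asthmatic mothers, each from 1 library without an error. Dotted lines are the medians of coding genes with a start peak (663 and 409 bp) and shaded bands their middle 50%; all 8 red points lie left of their blue partner, and Fos, Fosb, Junb and Jund stay right of the red band.

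Width and strength ranked the genes differently. A joined width at or above the 75th percentile with a strongest peak below the median −log10 q was found at 12.4% of coding genes with a start peak in F1PBS and 9.44% in F1OVA. Among AP-1 genes this held for 5 of 10 in F1PBS (Fos, Fosb, Jun, Junb and Jund) and 4 of 8 in F1OVA (Fos, Fosb, Junb and Jund). For some of them it rests on joining. Without joining, Jun was 253 bp wide in F1PBS, below the coding median of 542 bp, while Fosb, Junb and Jund kept their widths there. In F1OVA, Fos at 209 bp and Jund at 308 bp then lay below the coding median of 351 bp, and Junb kept its width. Fosl1, Fosl2 and Batf were below the median width in F1PBS, and Atf3 and Maff lay between the median and the 75th percentile. By fold, the authors' ratio of summit signal to local background, AP-1 genes were low as well, with a median of 4.71 in F1PBS and 4.27 in F1OVA against 7.22 and 6.17 over coding genes.

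**Figure D3:**
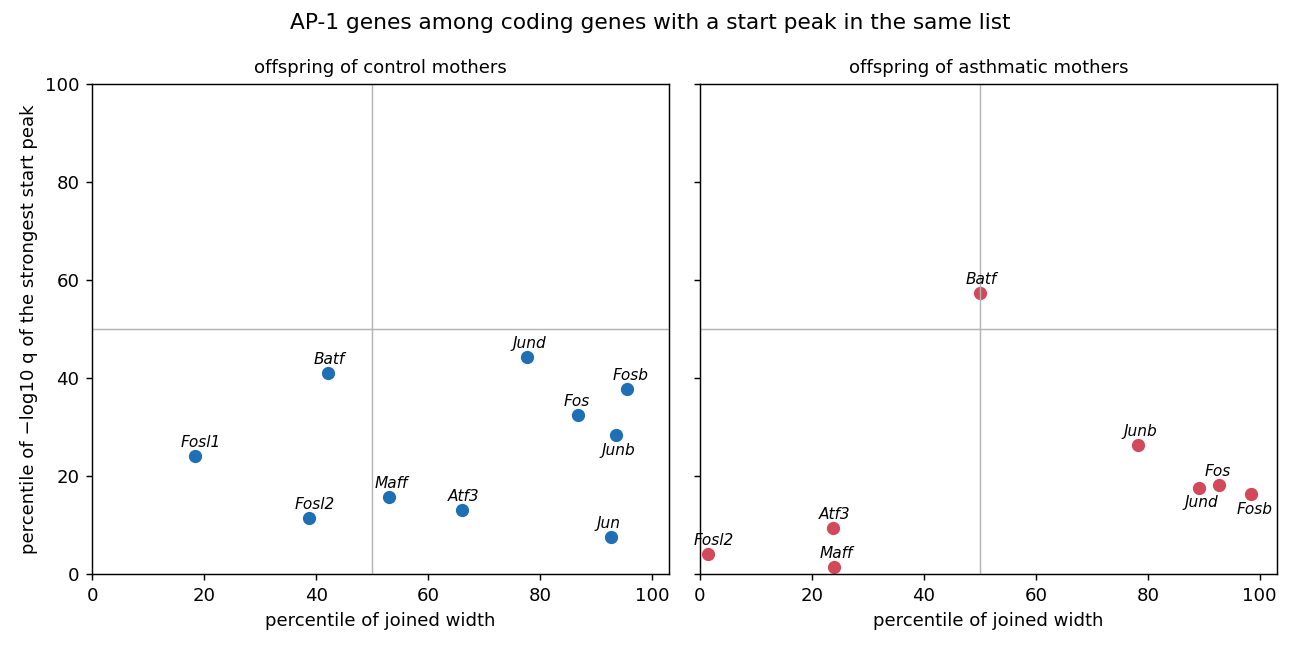
Percentile of joined width (horizontal) and of −log10 q of the strongest start peak (vertical) among coding genes with a start peak, for offspring of control mothers (left panel, 10 AP-1 genes) and of asthmatic mothers (right panel, 8 genes), 1 point a gene. Grey lines mark the middle gene; Fos, Fosb, Junb and Jund lie at the lower right in both panels, and only Batf in the right panel lies above the middle.

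Fold and −log10 q compare a summit with the background around it, so the fragments behind both were solved from the deposited fold and p-value of each peak. The solution assumes a Poisson model with no input control and whole numbers of fragments at summits. For every AP-1 gene peak it gave back the deposited −log10 p within 0.02%. The summits ranged from low to high among coding genes. The strongest start summit of Fos held 34 fragments in F1PBS (exact Poisson 95% interval 23.5 to 47.5) and 18 in F1OVA (10.7 to 28.4). Fosb held 40 and 19, Junb 37 and 21, Jund 35 and 17, and Fosl2 31 and 16. Batf held 23 and 16, Atf3 23 and 13, Maff 20 and 11, Jun 23 and Fosl1 19 in F1PBS. The medians of 27 and 16.5 fragments over AP-1 genes stood beside 26 and 16 over coding genes with a start peak, which themselves differ between the lists. In F1PBS the percentile among coding genes ran from 18.3 at Fosl1, 22.0 at Maff and 34.6 at Jun, Batf and Atf3 to 77.2 at Fosl2, 88.7 at Fos, 91.3 at Jund, 95.2 at Junb and 97.9 at Fosb. In F1OVA it ran from 5.27 at Maff to 85.7 at Junb. Within each list the intervals of all AP-1 genes overlapped one another, so no order among their summits is drawn.

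The background around these summits was high. Where it exceeds the smallest value that the library uses, the solved background corresponds to a whole number of fragments, within 0.05, in the 10 kb around the summit, the peak's own fragments included. This number is given as a multiple of the smallest background, 96.1 fragments per 10 kb in F1PBS and 100.4 in F1OVA. Fosb reached 4.54 in F1PBS (436 fragments) and 2.58 in F1OVA (259 fragments), at percentiles of 99.4 and 98.8 among coding genes with a start peak. Junb reached 4.36 and 2.68, Fosl2 4.29 and 2.34, Fos 3.50 and 2.18, and Jund 3.23 and 1.96. Jun reached 2.79 in F1PBS. These 6 genes had percentiles from 96.5 to 99.4 in F1PBS, and the 5 of them with a start peak in F1OVA had percentiles from 96.5 to 98.9 there.

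The remaining genes were nearer to the middle of coding genes, whose median was 1.36 in F1PBS and 1.07 in F1OVA. Atf3 stood at 2.26 and 1.32, Maff at 1.58 and 1.28, and Fosl1 at 1.13 in F1PBS. Batf stood at 1.28 in F1PBS and at the smallest background in F1OVA. At least 2 times the smallest background was reached by 7 of 10 AP-1 genes in F1PBS and 4 of 8 in F1OVA, beside 13.2% and 3.28% of coding genes. The window was lower in F1OVA at 8 of 8 genes, as at 88.5% of coding genes, with a median ratio of 0.612 beside 0.783. Ratios are limited where a window sits at the smallest background, as for 15.2% of coding genes with a start peak in F1PBS, 39.2% in F1OVA and Batf in F1OVA. Among genes above it in both lists, the window was lower in F1OVA at 7 of 7 AP-1 genes and 96.3% of coding genes, with median ratios of 0.608 and 0.747. No start of another coding gene lay within these windows except that of Iqcn at Jund. Since fold is a ratio to this background, a summit of a given height has a lower fold where the window is fuller.

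**Figure D4:**
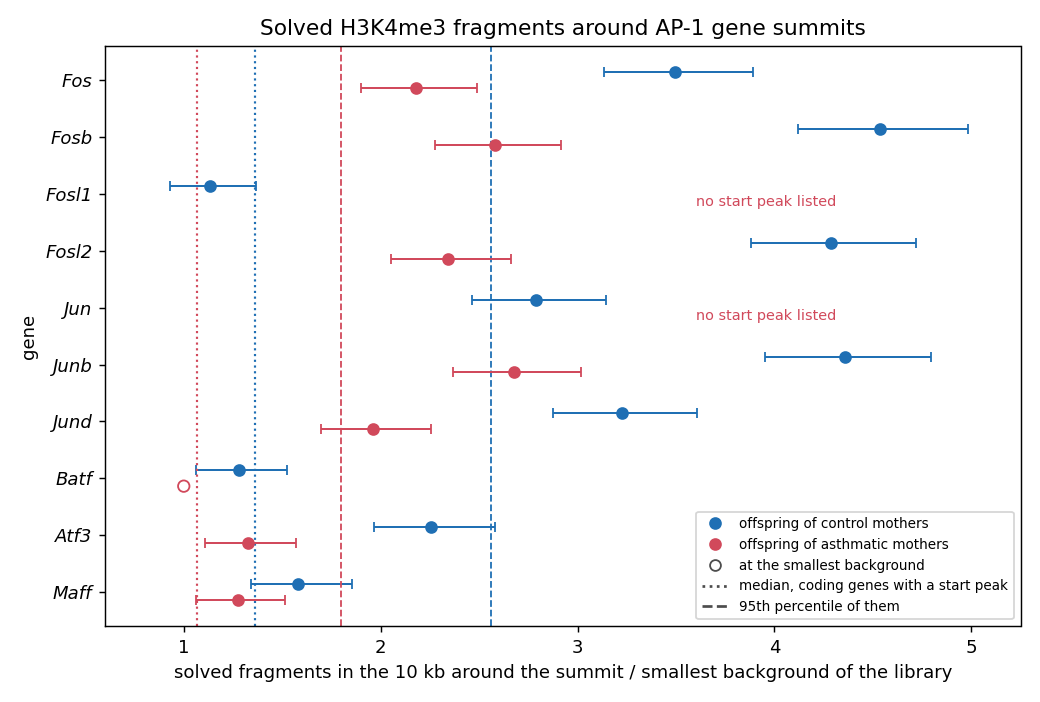
Solved fragments in the 10 kb around the strongest start summit of each AP-1 gene, as a multiple of the smallest background of the library, in blue for offspring of control mothers and in red for offspring of asthmatic mothers, with exact Poisson 95% intervals that cover counting error only. Dotted and dashed lines are the median and the 95th percentile of coding genes with a start peak; Fos, Fosb, Fosl2, Jun, Junb and Jund lie right of the blue dashed line, and the red points of all of these except Jun, which has none, lie right of the red dashed line.

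The reference sequence at these genes was rich in GC. Over the 500 bases to each side of the reference start, the median GC content of the 10 genes was 62.2% and the median ratio of observed to expected CpG was 0.777, beside 55.0% and 0.554 over all coding genes. Coding genes with a start peak in F1PBS had 59.5% and 0.744, nearer to the AP-1 genes. Batf had the lowest values, 54.3% and 0.339. The peaks themselves had GC contents from 56.8% to 75.3%.

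The stretch just before the start is where several AP-1 genes hold well-known control elements. The 250 bases before the RefSeq start (GRCm38.p6) are shown for the immediate early genes Fos, Jun, Atf3 and, from 3 promoters, the one at the reference start of Maff, 5′ to 3′ in the direction of transcription. Capitals mark motifs on either strand, among them the TATA box TATAAA. The GC box is GGGCGG and the CCAAT box has the letters of its name. The cAMP response element (CRE) is TGACGTCA. Its shorter core is TGACGT. A CRE-like AP-1 site known from Jun is TGACATCA. The positions are chr12:85473640-85473889 (plus strand) for Fos, chr4:95052223-95052472 (minus strand) for Jun, chr1:191183334-191183583 (minus strand) for Atf3 and chr15:79347270-79347519 (plus strand) for Maff.
Fos: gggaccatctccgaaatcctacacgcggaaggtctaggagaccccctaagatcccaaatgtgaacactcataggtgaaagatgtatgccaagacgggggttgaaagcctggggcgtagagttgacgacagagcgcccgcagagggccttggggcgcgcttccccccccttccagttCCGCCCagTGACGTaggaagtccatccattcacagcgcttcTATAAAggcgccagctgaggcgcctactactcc
Jun: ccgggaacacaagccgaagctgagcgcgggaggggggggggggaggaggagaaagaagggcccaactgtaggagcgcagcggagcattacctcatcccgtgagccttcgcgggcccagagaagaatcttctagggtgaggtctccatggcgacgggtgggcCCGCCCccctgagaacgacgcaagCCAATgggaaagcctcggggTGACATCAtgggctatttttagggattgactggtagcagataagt
Atf3: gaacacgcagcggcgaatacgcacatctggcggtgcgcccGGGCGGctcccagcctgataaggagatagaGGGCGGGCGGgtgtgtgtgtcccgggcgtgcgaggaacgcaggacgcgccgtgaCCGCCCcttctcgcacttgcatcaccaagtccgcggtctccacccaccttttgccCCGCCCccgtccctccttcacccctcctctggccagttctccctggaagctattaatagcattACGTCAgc
Maff: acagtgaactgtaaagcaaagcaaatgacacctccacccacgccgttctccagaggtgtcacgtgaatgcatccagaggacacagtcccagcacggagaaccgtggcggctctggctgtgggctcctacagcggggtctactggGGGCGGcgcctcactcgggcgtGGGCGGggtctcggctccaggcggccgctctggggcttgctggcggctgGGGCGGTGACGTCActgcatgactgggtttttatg
No peak of either list overlapped any of these 4 stretches. Peaks did reach into such stretches elsewhere, over 176 bp at Fosl2 and 158 bp at another Maff promoter in F1PBS, and over 20 bp in F1PBS and 14 bp in F1OVA at Batf. The remaining promoters of AP-1 genes held no peak.

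RefSeq gave 11 promoters for 9 of the 10 genes, 3 of them for Maff, and each motif was searched on both strands beside 32851 promoters of the same length. The AP-1 site TGANTCA was in none of these 11, and in 6.75% of all promoters. The CArG box, the core of the serum response element, was also in none, and in 1.47% of all. The full CRE was found in Maff alone, next to a GC box that precedes it without a gap, and in 1.55% of all. Its core TGACGT was in Fos, Batf, Atf3 and Maff, and in 6.47% of all. TGACATCA was in Jun and in another promoter of Maff, and in 2.93% of all. TATAAA was in Fos alone (12.4% of all), GGGCGG in 7 genes (32.7%), and CCAAT in Jun and Junb (33.8%). The full CRE contains the core, so those 2 counts are not independent. A match describes letters in this window, and a motif without a match may lie outside it.

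The genes around AP-1 were taken from 3 lists. Of 22 dimer partners and related bZIP genes, 18 had a start peak in F1PBS and 16 in F1OVA. Of coding genes, 50.9% and 41.9% had one. The median joined widths of these bZIP genes were 710 and 420.5 bp. The widest were Maf (1997 and 1560 bp), Crem (1582 bp in F1PBS) and Nfe2l2 (1414 and 919 bp), followed in F1OVA by Bach2 at 668 bp. Maf, which encodes a large MAF protein, combined width with a low rank in F1OVA, at a gene percentile of 4.91. Atf7 and Ddit3, 2 of the 18, had a start peak in F1PBS alone, beside 19.1% of coding genes with one there. The Ddit3 entry used was ENSMUSG00000116429.1. Batf3 and Nrl were among those with none in either list. In this list the 10 kb window reached 2 times the smallest background at 6 of 18 genes in F1PBS and 1 of 16 in F1OVA. Of coding genes with a start peak, 13.2% and 3.28% reached it.

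Of 17 genes for kinases and serum response factor partners that induce AP-1 genes, 16 had a start peak in F1PBS and 15 in F1OVA. The shares of coding genes were 50.9% and 41.9%. Elk1, which encodes a partner of SRF, had a start peak in F1PBS alone, as did 19.1% of coding genes with one there. Mapk10 had none. The widest in F1PBS were Map3k1 (1722 bp), Elk4 (1164 bp) and Srf (1149 bp), and in F1OVA Map2k7 (896 bp), Map3k1 (868 bp) and Mapk14 (744 bp). The windows of this list reached 2 times the smallest background at 4 of 16 genes in F1PBS and 0 of 15 in F1OVA. This held for 13.2% and 3.28% of coding genes with a start peak. The gene percentiles of the list were near the middle, with medians of 60.3 and 63.1. The corresponding median gene percentiles of the AP-1 genes were 26.3 and 17.0.

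Of 13 other immediate early genes, 9 had a start peak in F1PBS and 5 in F1OVA, beside 50.9% and 41.9% of coding genes. In F1PBS the 9 had a median joined width of 1149 bp, a median gene percentile of 19.5 and a median window percentile of 97.8. Windows of 2 times the smallest background or more, seen at 13.2% of coding genes with a start peak, were found at 7 of these 9. They were not alike, since Egr3 (228 bp), Arc (389 bp) and Zfp36 (393 bp) were narrow, Ier5 and Srf ranked above the middle at gene percentiles of 65.5 and 57.9, and the window of Arc was at a percentile of 31.9. The widest were Btg2 (1615 bp in F1PBS, 836 bp in F1OVA), which encodes an antiproliferative protein, Ier5 (1280 and 1222 bp), Myc (1178 bp in F1PBS) and, in F1OVA, Ier2 (797 bp). Egr3, Myc, Zfp36 and Arc, 4 of the 9, had a start peak in F1PBS alone, beside 19.1% of coding genes with one there. Egr1, Ier3, Npas4 and Ccn1 had none in either list. In F1OVA the gene percentiles of the 5 were spread, with Ier2 at 30.4 and Btg2 at 37.6, and Egr2 at 88.1, Ier5 at 93.8 and Srf at 96.1. Their median window percentile was 97.6. The 4 genes with a start peak in F1PBS alone had ranked between 3.39 and 19.5 there, and Srf is counted in the list of kinases and SRF partners as well.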

How the data were processed

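Peaks were those the authors deposited, 1 list for each of 2 libraries, on GRCm38. Per the methods of the study, reads were trimmed with TrimGalore, aligned with Bowtie 2 and cleared of duplicates with Sambamba. According to its reporting summary, the study made no peak calls for ChIP-seq, although a list was deposited for each library, so the caller, its threshold and the use of an input control are not known here. The deposited columns hold a score (10 times −log10 q), a fold (a ratio of summit signal to background), and −log10 of the p-value and q-value. Positions were counted from 1. Total read depth was not analysed here.

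The 10 genes, the gene lists and the markers were chosen with earlier results of these data known, and all 10 genes are named. From each other list the 3 widest domains of each library and genes marked in 1 library alone are named. The reference start, the 10 kb window, the class of wide but low-ranked domains, TGACGT and TGACATCA were chosen after values were seen. Fragments were solved from fold and p under a Poisson model, taking the smallest peak width, 190 bp in F1PBS and 156 bp in F1OVA, as the fragment length. Joining, start assignment and solving were tested on simulated data. Scripts ran in Python 3.11.15 (scipy 1.17.1, pandas 2.3.3, numpy 2.4.6), with figures from matplotlib 3.10.9.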

Additional observations from a re-analysis of the deposited data

How the results depend on the processing

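No paired analysis was possible because each group consists of a single library. Under the alternative settings 39 values of the comparisons stayed near the main one, 24 moved and 0 changed sign. A change of sign was defined for the width ratios alone, as a turn from narrower to wider in F1OVA. The other values could not be called so. Near means within 1.5 times for counts, widths and ratios, a wide limit that 8 genes falling to 6 still meets, and within the exact 95% binomial interval of the rank for percentiles, a narrow one. The order of AP-1 genes against all coding genes in the median width ratio, 0.593 against 0.664, did turn: it was 0.784 against 0.665 both within 500 bp and at the 5′ end alone, with 6 AP-1 genes left in F1OVA, and 0.879 against 0.657 at −log10 q of at least 5. With RefSeq starts, an alternative chosen after seeing the data, a start was covered at 2 AP-1 genes in F1PBS and 1 in F1OVA, from 0 and 0. With peaks of −log10 q of at least 5 alone, the AP-1 genes with a start peak in F1OVA fell to 5, all 5 of them wider in F1PBS, the F1OVA median width became 889 bp and the median list percentiles became 62.0 and 11.6. Among the 10000 peaks of highest −log10 p, 3 AP-1 genes had a start peak in F1PBS (median list percentile 8.745), 0 in F1OVA and 0 in both, which leaves no widths to compare. The median list percentiles, 68.1 in F1PBS and 25.8 in F1OVA, became 39.3 and 23.0 by fold and 26.3 and 17.0 among strongest start peaks, with 70.0 and 27.6 at the 5′ end alone, and 27.7 in F1OVA within 2000 bp. Without joining, the F1OVA median width was 287.5 bp against 351 bp over coding genes, where the joined 541.5 bp stood against 409 bp, and the median ratio was 0.344 against 0.645. With covered bases in place of the span the ratio was 0.392 against 0.631. Requiring an overlap of 50% of both peaks, 1 F1PBS and 1 F1OVA peak were shared, from 9 and 12, beside 52.0% and 50.9% of peaks at coding genes. The number of fragments at summits, 11 to 40, limits the order of genes within a list.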

Other observations

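Other genes of the lists, chosen after their values were seen, differed widely in how width changed between the lists. Mafg, which encodes a small MAF protein, was the dimer partner with a wider domain in F1OVA, 594 bp against 509 bp in F1PBS. Egr2, an immediate early gene for a zinc finger factor, had a domain of 1090 bp in F1PBS and 193 bp in F1OVA, while its gene percentile of −log10 q was 20.3 in F1PBS and 88.1 in F1OVA. Cebpb, which encodes a bZIP factor of the inflammatory response, had 1157 bp in F1PBS and 361 bp in F1OVA, with gene percentiles of 6.96 and 28.3. None of these values has a replicate.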
